A study of Homo sapiens with 12 samples.

Results

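The 2 siHDAC2 libraries were compared directly with the 2 siKDM1A libraries, which are 4 of the 12 RNA-seq libraries in the series. They were chosen by their treatment label, and no control library entered the contrast. The sample titles name the cells HEK293T, a line derived from human embryonic kidney, whereas the paper names HEK293 for this RNA-seq. All libraries came from such cells transfected with siRNA by lipid transfection (Lipofectamine) without any other treatment. The siHDAC2 group received siRNA against HDAC2, the siKDM1A group siRNA against KDM1A, and the siCTL group (2 libraries) control siRNA. Levels in siCTL are given only to show where the control lay. The methods give a single siRNA sequence for HDAC2 and a single one for KDM1A, so that an effect of the knockdown and an off-target effect of that siRNA cannot be told apart. The time between transfection and harvest was not given in the sources used here, and nothing in the labels says that replicates came from separate cultures, so that the p-values measure the spread between these libraries, which may be technical.

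HDAC2 removes acetyl groups from histone lysines, and KDM1A, also called LSD1, removes methyl groups from lysine 4 of histone H3. Both enzymes take part in repression of transcription, and the study treats both as parts of the NuRD complex, which joins nucleosome remodeling to histone deacetylation. The paper also reports an activating role for CARM1 and NuRD. Many genes, enriched for the cell cycle, fell in common when CARM1 or NuRD subunits, HDAC2 and KDM1A among them, were knocked down. HDAC2 and its paralog HDAC1 also sit in the SIN3 complex and, together with KDM1A, in the CoREST complex, which is recruited to neuronal genes by the repressor REST. The direct contrast addresses which transcripts respond differently when one or the other enzyme is depleted from the same cells.

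Each of the 4 libraries held between 20613474 and 28648657 counts on genes. The root mean square difference of log2 CPM (counts scaled to library size, with 1 added before the log) between libraries of the 2 knockdowns was 0.251 to 0.264 over their 4 pairs, compared to 0.137 between the siHDAC2 replicates and 0.133 between the siKDM1A replicates. The siHDAC2 libraries had slightly more fragments on no annotated feature, at 20.9% to 21.2% compared to 19.1% to 19.3%. Markers of other cell types were low in all 3 groups, and the 21 that were counted summed to 25.6 to 25.8 CPM in siHDAC2, 26.5 to 29.1 CPM in siKDM1A and 20.8 to 23.6 CPM in siCTL. The part that either measure has in the results was not tested.

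HDAC2 (chr6:114254192-114332472, minus strand, GRCh37) had 40.8 and 41.0 CPM in the siHDAC2 libraries, 212 and 220 CPM in the siKDM1A libraries, and 204 and 212 CPM in siCTL. KDM1A (chr1:23345936-23410182, plus strand, GRCh37) had 28.9 and 29.7 CPM in the siKDM1A libraries, 179.7 and 175 CPM in the siHDAC2 libraries, and 179.8 and 173 CPM in siCTL. Each targeted transcript was thus low only in its own group among these 3, as the labels say (in such bulk RNA, fewer cells with the transcript and less of it per cell cannot be told apart), and neither knockdown moved the other target past the threshold. The remaining level was 19.7% of siCTL for HDAC2 and 16.6% for KDM1A. In the direct contrast, the log2 fold change (siHDAC2 minus siKDM1A throughout, so that a negative value is higher in siKDM1A) was -2.40 with an SE of 0.053 for HDAC2 (adjusted p = 1.02e-25) and 2.60 with an SE of 0.056 for KDM1A (adjusted p = 8.51e-26).

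A gene was called when its Benjamini-Hochberg adjusted p in edgeR's quasi-likelihood test was 0.05 or less and its fold was at least 1.2. Of 12830 coding genes tested, 1841 (14.3%) were called. In detail, 779 genes (6.07%) were higher in siHDAC2 and 1062 (8.28%) were higher in siKDM1A. Most differences were small, with a median fold of 1.31 among genes higher in siHDAC2 and 1.37 among genes higher in siKDM1A, and only 28 and 126 genes differed more than 2-fold. The CPM ranges of the groups did not overlap for 7814 genes (60.9%), so that lack of overlap between pairs of libraries was common.

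**Figure D1:**
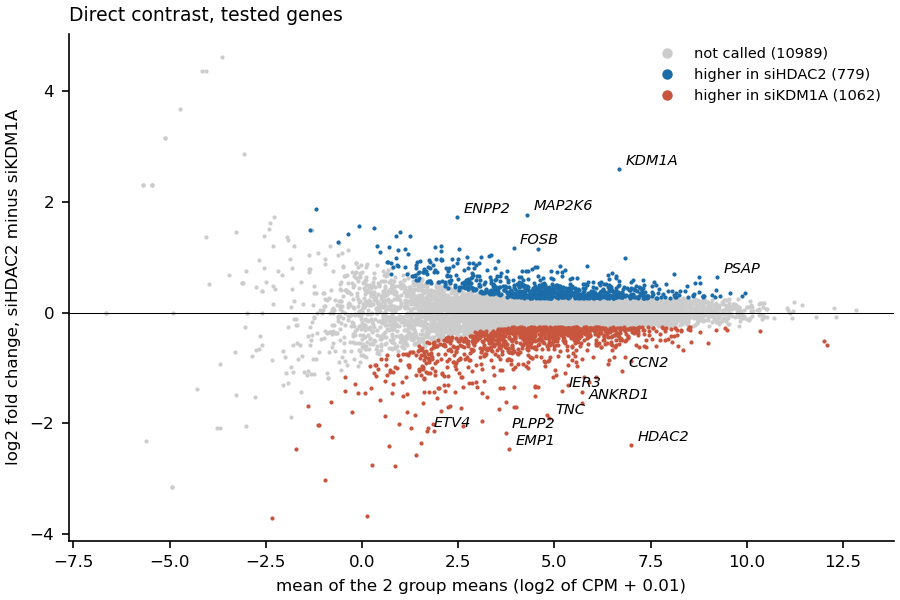
Log2 fold change of siHDAC2 minus siKDM1A (vertical axis) against the log2 of the mean CPM of both groups plus 0.01 (horizontal axis), 1 point per tested gene. Blue points are the 779 genes higher in siHDAC2, red points the 1062 genes higher in siKDM1A and grey points the 10989 genes not called. The targeted genes HDAC2 and KDM1A lie at -2.40 and 2.60.

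Where siCTL lay for the called genes is a description without a test. Among the 779 genes higher in siHDAC2, the siCTL mean was between both knockdowns for 360 (46.2%), above both for 311 (39.9%) and below both for 108 (13.9%). Among the 1062 genes higher in siKDM1A, it was between them for 577 (54.3%), below both for 368 (34.7%) and above both for 117 (11.02%). Over all 12830 tested genes, siCTL was between for 3333 (26.0%), above both for 4734 (36.9%) and below both for 4763 (37.1%). Genes were called for a gap between the knockdowns, and that choice favours a siCTL mean between them. In the model's own comparisons with siCTL, siHDAC2 had 1155 genes lower (9.0%) and 1357 higher (10.6%), and siKDM1A had 1474 lower (11.5%) and 1826 higher (14.2%). Which direction held more genes turned round for siKDM1A under a correction for GC content (1785 lower and 1604 higher) and for both knockdowns under a correction for length (1274 lower and 1205 higher in siHDAC2, 1780 and 1560 in siKDM1A). These comparisons share the siCTL libraries. Of the genes higher in siKDM1A in the direct contrast, 437 were called only as higher in siKDM1A than in siCTL, 211 only as lower in siHDAC2, and 45 as both, whereas 131 were higher and 15 lower than siCTL in both knockdowns. The remaining 223 were called in neither comparison with siCTL. Of the genes higher in siHDAC2, 351 were called only as lower in siKDM1A than in siCTL, 140 only as higher in siHDAC2, and 9 as both, and 73 were lower and 25 higher than siCTL in both. Here 181 were called in neither comparison.

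**Figure D2:**
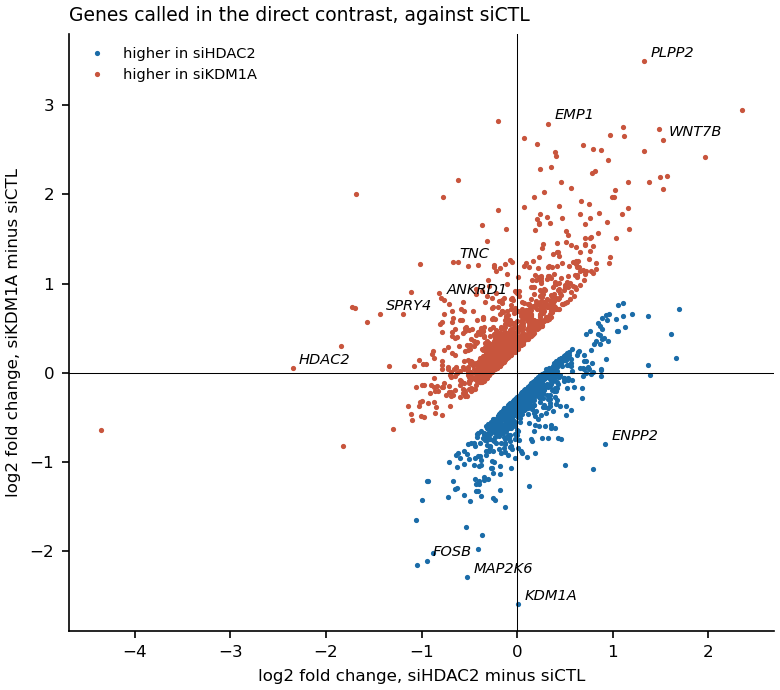
Log2 fold change against siCTL in siHDAC2 (horizontal axis) and in siKDM1A (vertical axis) for the genes called in the direct contrast. Both axes share the siCTL libraries, and the empty band along the diagonal comes from the choice of called genes. ANKRD1 and SPRY4 lie at the upper left, EMP1 and PLPP2 at the top, and MAP2K6 and FOSB at the bottom.

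Of 15 NuRD subunits, 2 were called, a share of 13.3% that is close to the 14.3% of all tested genes. Besides HDAC2 itself, CDK2AP1 was higher in siHDAC2, with 65.6 and 65.3 CPM compared to 54.2 and 54.7 CPM (log2 fold change 0.26, SE 0.059, adjusted p = 0.00106), a difference close to the 1.2-fold minimum. Its log2 fold change fell just under that minimum at 0.259 without siHDAC2 replicate 1 and at 0.258 without siKDM1A replicate 1, and it was not called there nor by DESeq2. HDAC1, the paralog that can take the place of HDAC2, had 312.5 and 291 CPM in siHDAC2, 278 and 274 CPM in siKDM1A, and 209.6 and 211 CPM in siCTL. Both knockdowns thus held more HDAC1 than siCTL, by 0.52 and 0.39 on the log2 scale, and both were called. The difference between the knockdowns (0.13, SE 0.040, adjusted p = 0.0175) was below 1.2-fold. HDAC1 was also above siCTL in siCARM1 (277 and 281 CPM), siCHD4 (263 and 260 CPM) and siGATAD2A (298.9 and 298.8 CPM). The higher level was thus not particular to siHDAC2 and siKDM1A. Per kilobase of annotated exon, HDAC1 had a mean of 71.4 FPKM in siHDAC2 and 65.6 FPKM in siKDM1A, compared to 2.51 and 13.3 FPKM for HDAC2, with all annotated exons counted in the length. The helicase CHD3 had 202 and 206 CPM in siHDAC2 compared to 176 and 171.5 CPM in siKDM1A (log2 fold change 0.23, SE 0.045), also under the fold minimum. The helicase CHD4 differed by -0.12 with an SE of 0.068 (46.9% of its exons overlap another gene), GATAD2A by -0.13 with an SE of 0.053, and GATAD2B by 0.01 with an SE of 0.049.

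Of 17 tested members of the KDM1A and CoREST list, 3 were called (17.6%), namely KDM1A itself, RCOR3 and SNAI1. RCOR3, a CoREST family scaffold, had 32.8 and 30.3 CPM in siHDAC2, 19.7 and 23.6 CPM in siKDM1A, and 27.2 and 29.1 CPM in siCTL (log2 fold change 0.54, SE 0.087, adjusted p = 2.07e-05). It was lower than siCTL in siKDM1A, whereas the scaffold RCOR1 was not called (-0.00022, SE 0.053). SNAI1, a zinc finger repressor that recruits KDM1A, was higher in siKDM1A at 8.73 and 8.64 CPM compared to 5.05 and 7.08 CPM (log2 fold change -0.49, adjusted p = 0.0155), but its call was lost without siHDAC2 replicate 1 (-0.29, adjusted p = 0.223), siKDM1A replicate 1 (-0.48, adjusted p = 0.0632) or siKDM1A replicate 2 (-0.50, adjusted p = 0.062). KDM1B, the other flavin-dependent lysine 4 demethylase, had 32.7 and 33.8 CPM in siHDAC2 and 36.5 and 38.1 CPM in siKDM1A and was not called. REST itself had 122 and 117 CPM compared to 111 and 114 CPM and was not called either.

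**Figure D3:**
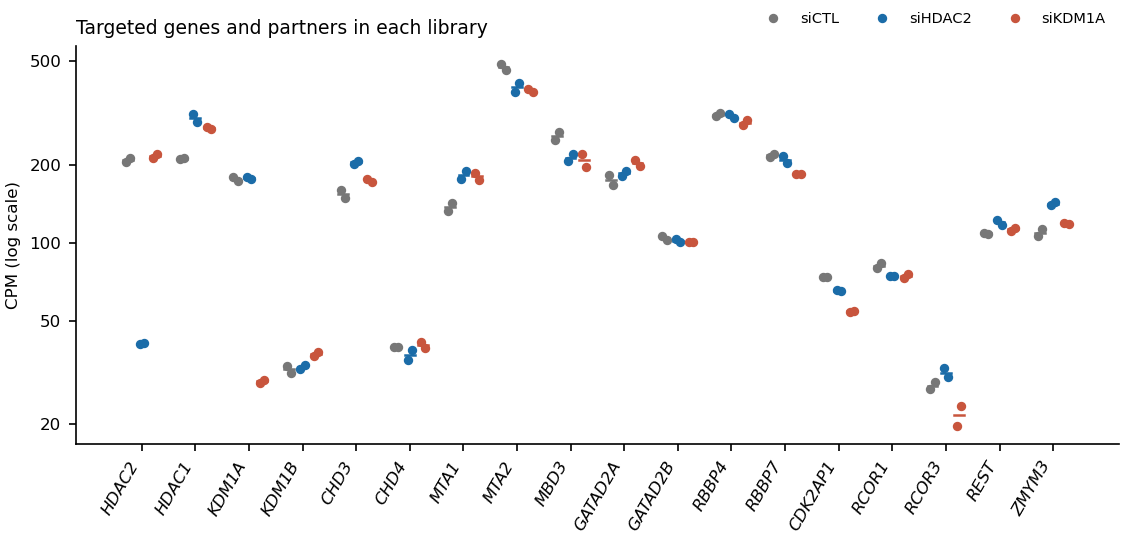
CPM on a log scale of the targeted genes and of NuRD and CoREST partners, 1 point per library and a bar at the mean of the 2 libraries, for siCTL (grey), siHDAC2 (blue) and siKDM1A (red). HDAC2 is low in siHDAC2 (40.8 and 41.0 CPM) and KDM1A in siKDM1A (28.9 and 29.7 CPM), HDAC1 is lowest in siCTL, and most other partners lie at similar levels in both knockdowns.

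Other lists of chromatin genes had 11.8% or more of their members called, compared to 14.3% of all tested genes. In the SIN3, NCOR and MiDAC list, 3 of 23 were higher in siHDAC2 and 0 in siKDM1A, and SUDS3, a SIN3 subunit, had 112 and 108 CPM compared to 82.0 and 87.3 CPM (log2 fold change 0.38, adjusted p = 2.21e-06). Of 14 other histone deacetylases, 2 were higher in siHDAC2 and 1 in siKDM1A. Without siHDAC2 replicate 2, the counts higher in siHDAC2 were 1 in the first of these lists and 0 in the second. The member higher in siKDM1A was HDAC9, a class IIa deacetylase, at 10.96 and 10.5 CPM compared to 7.63 and 7.79 CPM (log2 fold change -0.47, adjusted p = 0.00523). Of 16 acetyltransferases and bromodomain readers, 3 were higher in siHDAC2, among them KAT2B (21.4 CPM in both libraries compared to 15.5 and 14.9 CPM, log2 fold change 0.49, adjusted p = 0.000261), and 1 was higher in siKDM1A. Of 14 lysine 4 methyltransferases and JmjC lysine 4 demethylases, 2 were higher in siHDAC2 and 0 in siKDM1A. One of them was DPY30, a core subunit of the methyltransferase complexes, with 31.9 and 27.6 CPM compared to 19.1 and 20.3 CPM (log2 fold change 0.59, adjusted p = 4.2e-06); 50.8% of its exons overlap another gene. Of 17 other JmjC demethylases, 0 were higher in siHDAC2 and 2 in siKDM1A.

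The differences past 2-fold lay mainly on the siKDM1A side. EMP1, a membrane protein of the PMP22 family, had 23.4 and 24.4 CPM in siKDM1A, 4.43 and 4.21 CPM in siHDAC2, and 3.28 and 3.59 CPM in siCTL (log2 fold change -2.47, SE 0.12, adjusted p = 6.28e-16). PLPP2, a lipid phosphate phosphatase, had 23.2 and 20.3 CPM in siKDM1A, 4.64 and 4.99 CPM in siHDAC2, and 2.02 and 1.84 CPM in siCTL (log2 fold change -2.17, SE 0.14, adjusted p = 3.38e-13). EMP1 was thus high in siKDM1A alone of these 3 groups, and PLPP2 was above siCTL in both knockdowns, by 1.33 in siHDAC2 and by 3.496 in siKDM1A on the log2 scale. EBI3, a subunit of heterodimeric interleukins, reached 4.80 and 4.28 CPM in siKDM1A compared to 0.93 and 0.63 CPM in siHDAC2 (log2 fold change -2.57, adjusted p = 4.03e-08). PAEP, the secreted lipocalin glycodelin, had 3.43 and 2.89 CPM compared to 0.57 and 0.37 CPM (log2 fold change -2.78, adjusted p = 4.36e-08). Their counts in siHDAC2 were small, with means of 17.5 for EBI3 and 10.5 for PAEP, compared to 103.5 and 72.0 in siKDM1A. RAB39B (a small GTPase), WNT6 and FAM131B were also called higher than siCTL in siKDM1A and not called in siHDAC2, with direct log2 fold changes of -2.36, -2.08 and -2.05 and siHDAC2 means within 0.40 of siCTL on the log2 scale.

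ETV4, an ETS factor induced by ERK signalling, had 1.19 CPM in both siHDAC2 libraries, 5.44 and 5.16 CPM in siKDM1A, and 3.99 and 4.55 CPM in siCTL (log2 fold change -2.15, SE 0.20, adjusted p = 6.68e-10). SPRY4, an inhibitor of receptor tyrosine kinase signalling, had 1.34 and 1.15 CPM in siHDAC2, 5.03 and 5.53 CPM in siKDM1A, and 3.56 and 3.17 CPM in siCTL (log2 fold change -2.09, SE 0.20, adjusted p = 9.24e-10). For both, the larger departure from siCTL was the lower level in siHDAC2. CEND1 and OLR1 (a receptor for oxidized low density lipoprotein) were likewise lower than siCTL in siHDAC2 and higher in siKDM1A, with direct log2 fold changes of -2.14 and -2.42, and OLR1 rested on a mean of 11.5 counts in siHDAC2.

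The smallest adjusted p-values on the siKDM1A side, apart from HDAC2, belonged to ANKRD1, KRT17, TNC and TNFRSF12A. ANKRD1, a target of the YAP and TAZ coactivators, had 77.9 and 81.7 CPM in siKDM1A, 25.1 and 26.2 CPM in siHDAC2, and 46.4 and 43.1 CPM in siCTL (log2 fold change -1.64, SE 0.059, adjusted p = 1.69e-19). KRT17, an intermediate filament keratin, had 77.8 and 76.8 CPM in siKDM1A, 27.4 and 29.8 CPM in siHDAC2, and 49.5 and 48.1 CPM in siCTL (log2 fold change -1.43, adjusted p = 3.45e-17). In both genes, siCTL lay between the knockdowns and none of the 3 groups overlapped. TNC, the matrix glycoprotein tenascin C, had 45.4 and 47.1 CPM in siKDM1A, 12.7 and 11.96 CPM in siHDAC2, and 19.3 and 19.8 CPM in siCTL (log2 fold change -1.91, adjusted p = 5.04e-17). TNFRSF12A, the receptor for the cytokine TWEAK, had 86.1 and 82.6 CPM in siKDM1A, 33.6 and 36.7 CPM in siHDAC2, and 56.6 CPM in both siCTL libraries (log2 fold change -1.26, adjusted p = 8.09e-17). For these 2 genes too, every siCTL value lay below siKDM1A and above siHDAC2.

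Among genes higher in siHDAC2, the largest differences mostly came with a low level in siKDM1A. MAP2K6, a kinase that activates p38, had 31.9 and 28.6 CPM in siHDAC2, 9.23 and 8.47 CPM in siKDM1A, and 42.8 and 43.8 CPM in siCTL (log2 fold change 1.77, SE 0.098, adjusted p = 7.43e-15). FOSB, a subunit of the AP-1 factor, had 20.1 and 22.2 CPM in siHDAC2, 10.1 and 8.93 CPM in siKDM1A, and 39.3 and 42.5 CPM in siCTL (log2 fold change 1.16, SE 0.11, adjusted p = 1.54e-09). Both were below siCTL in each knockdown and lower in siKDM1A. PSAP, the precursor of the saposins that lysosomal sphingolipid breakdown needs, had 716 and 751 CPM in siHDAC2, 472 CPM in both siKDM1A libraries, and 730.0 and 737 CPM in siCTL (log2 fold change 0.64, SE 0.035, adjusted p = 8.28e-15). GFPT1, the first and rate-limiting enzyme of the hexosamine pathway, had 158 and 147 CPM in siHDAC2, 75.2 and 78.3 CPM in siKDM1A, and 125 and 130.0 CPM in siCTL (log2 fold change 0.99, adjusted p = 2.27e-14). PSAP was at the siCTL level in siHDAC2, and GFPT1 was below siCTL in siKDM1A by 0.73 on the log2 scale. SLIT2, a secreted ligand of ROBO receptors, showed the other pattern, with 520 and 544 CPM in siHDAC2, 335 and 350.1 CPM in siKDM1A, and 326 and 332 CPM in siCTL (log2 fold change 0.64, adjusted p = 6.1e-14).

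ENPP2 encodes autotaxin, the enzyme that makes lysophosphatidic acid. It had 10.0 and 7.04 CPM in siHDAC2, 3.29 and 1.84 CPM in siKDM1A, and 3.66 and 5.11 CPM in siCTL (log2 fold change 1.72, SE 0.22, adjusted p = 3.5e-07). SARDH, a mitochondrial sarcosine dehydrogenase, had 30.7 and 34.99 CPM in siHDAC2, 14.3 and 15.3 CPM in siKDM1A, and 21.7 and 27.2 CPM in siCTL (log2 fold change 1.16, adjusted p = 6.27e-10). Both were called in opposite directions against siCTL. Also among the largest were PERCC1 (1.45), CACNA2D2 (1.39), a calcium channel subunit, RAB3A (1.38), a synaptic vesicle GTPase, UGT3A2 (1.198), a glycosyltransferase, and SEMA3G (1.19), a secreted semaphorin, all of which were called lower in siKDM1A than in siCTL and not called in siHDAC2. GPR146 (1.14) was not called with counts taken without regard to strand (adjusted p = 0.132), and CLEC4F (1.18) lost its call without siKDM1A replicate 1 (0.92, adjusted p = 0.0825).

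**Figure D4:**
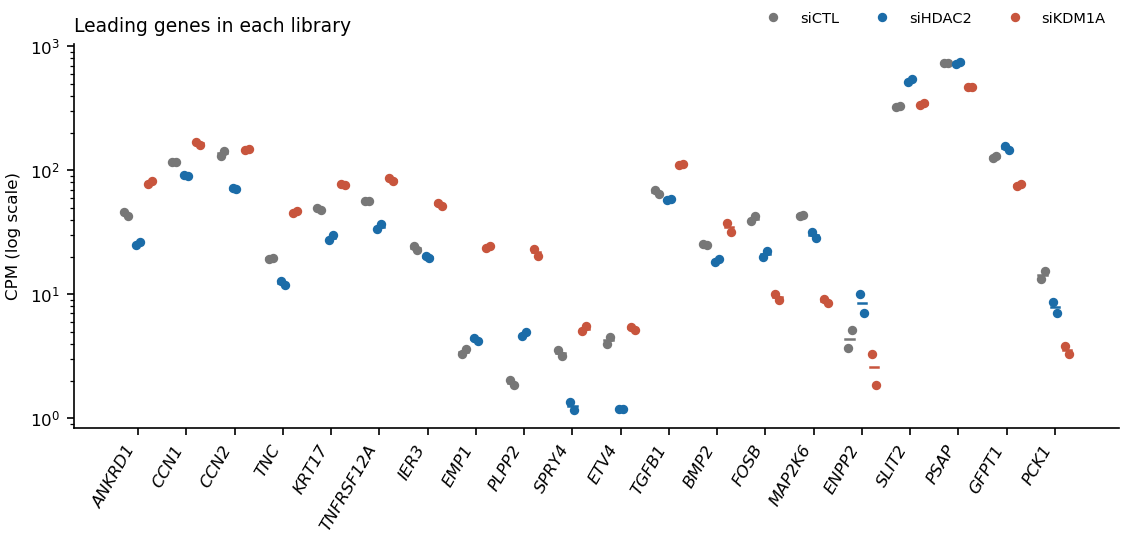
CPM on a log scale of leading genes of the direct contrast, 1 point per library and a bar at the mean of the 2 libraries, for siCTL (grey), siHDAC2 (blue) and siKDM1A (red). From ANKRD1 to BMP2 siKDM1A is above siHDAC2, and from FOSB to PCK1 it is below. ANKRD1, KRT17 and TNC have siCTL between the knockdowns, and EMP1 is high in siKDM1A alone of the groups shown.

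In the order of levels over the whole series, 341 of the 1062 genes higher in siKDM1A (32.1%) had both siKDM1A libraries above all 10 other libraries of the series, and 217 (20.4%) had both siHDAC2 libraries below all 10 others. The corresponding shares over all tested genes were 5.50% and 4.16%, a difference that the choice of called genes favours. EMP1, PLPP2, EBI3, TNC and SYT11 were highest in siKDM1A in this sense, and ANKRD1, CCN1, CCN2, ETV4, SPRY4, IER3 and TGFB1 were lowest in siHDAC2. Of the 779 genes higher in siHDAC2, 221 (28.4%) were lowest in siKDM1A, among them PSAP and GFPT1, and 126 (16.2%) were highest in siHDAC2, among them ENPP2. Over all tested genes, 4.59% were lowest in siKDM1A and 3.61% highest in siHDAC2, and the choice of called genes favours this difference too. MAP2K6 and FOSB were at neither end, since siCHD4 and siGATAD2A libraries also had low levels of both.

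Among genes that respond to growth factor and mechanical signals, those called were mostly higher in siKDM1A. The 4 lists of such genes held 88 tested genes when each was counted once, of which 43 were higher in siKDM1A and 5 were higher in siHDAC2, where 8.28% and 6.07% of all tested genes were. The lists were brought together after their values were seen.

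The immediate early and AP-1 list holds transcription factors and feedback genes that cells switch on within minutes of a stimulus. Of its 27 tested members, 15 were higher in siKDM1A and 2 in siHDAC2, with a median log2 fold change of -0.35 (7.3e-05 over all tested genes). IER3 had 55.0 and 52.0 CPM in siKDM1A, 20.5 and 19.4 CPM in siHDAC2, and 24.4 and 22.6 CPM in siCTL (log2 fold change -1.43, SE 0.074, adjusted p = 1.87e-15). BATF3, which dimerizes with JUN proteins, had 4.93 and 3.98 CPM in siKDM1A compared to 1.55 and 1.71 CPM in siHDAC2 (log2 fold change -1.43, adjusted p = 2.74e-05). IER3 and BATF3 were called higher than siCTL in siKDM1A and were not called in siHDAC2. The members higher in siHDAC2 were both FOS family genes, FOSB and, chosen after its values were seen, FOS, with 24.2 and 27.4 CPM in siHDAC2, 18.8 and 19.5 CPM in siKDM1A, and 50.6 and 52.6 CPM in siCTL (log2 fold change 0.43, adjusted p = 0.000206). FOS was below siCTL in both knockdowns. Against siCTL, 11 members were lower and 3 higher in siHDAC2, and 6 were lower and 10 higher in siKDM1A.

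The ERK feedback list holds inhibitors induced by the ERK kinases, such as sprouty genes and phosphatases, and other genes tied to MAP kinase signalling. Of 18 members, 8 were higher in siKDM1A and 2 (MAP2K6 and the cyclin gene CCND1) in siHDAC2, with a median log2 fold change of -0.42. DUSP5, a phosphatase of nuclear ERK chosen after its values were seen, had 18.4 CPM in both siKDM1A libraries, 6.29 and 7.75 CPM in siHDAC2, and 11.98 and 10.9 CPM in siCTL (log2 fold change -1.37, adjusted p = 6.57e-12). CCND1, a driver of the G1 phase, had 249 and 256 CPM in siHDAC2, 202 and 196 CPM in siKDM1A, and 319 and 324 CPM in siCTL (log2 fold change 0.34, adjusted p = 1.16e-07). It was lower than siCTL in both knockdowns and lowest in siKDM1A. Against siCTL, 13 members were lower and 0 higher in siHDAC2, while 3 were lower and 4 higher in siKDM1A.

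YAP and TAZ are coactivators that enter the nucleus when cells spread or lose contact and that bind DNA through TEAD factors. Of 24 tested members of their target list, 13 were higher in siKDM1A and 0 in siHDAC2, with a median log2 fold change of -0.35. CCN2, also called CTGF, had 146 and 148 CPM in siKDM1A, 71.6 and 70.1 CPM in siHDAC2, and 131 and 143 CPM in siCTL (log2 fold change -1.05, SE 0.050, adjusted p = 1.73e-16). CCN1, also called CYR61, had 171 and 161.5 CPM in siKDM1A, 91.2 and 89.4 CPM in siHDAC2, and 118 and 117 CPM in siCTL (log2 fold change -0.88, SE 0.047, adjusted p = 4.41e-15). CCN2 was low in siHDAC2 and not called in siKDM1A against siCTL, whereas CCN1 was lower in siHDAC2 and higher in siKDM1A. GADD45B, a stress-induced gene, had 63.9 and 59.9 CPM in siKDM1A, 34.0 and 32.9 CPM in siHDAC2, and 32.0 and 37.2 CPM in siCTL (log2 fold change -0.89, adjusted p = 6.57e-12). Among the 13 called members, siCTL lay between the knockdowns in 10, above both in 2 and below both in 1. Against siCTL, 9 members were lower and 1 higher in siHDAC2, and 1 was lower and 7 higher in siKDM1A.

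The promoters of 3 members with the TEAD core motif GGAATG near the start site are shown because these genes separate the knockdowns and the motif is the one that the YAP and TAZ partners bind. Each stretch of 28 bases comes from RefSeq (GRCh38.p14), is written 5′ to 3′ in the direction of the gene, and has the motif or its reverse complement CATTCC in capitals. NUAK2 was chosen after its values were seen (log2 fold change -0.86, adjusted p = 4.27e-07).
CCN2 (chr6:131951525-131951552, minus strand): tttcagacggaGGAATGctgagtgtcaa
ANKRD1 (chr10:90921291-90921318, minus strand): tcaccaccaaaGGAATGgccctctcaca
NUAK2 (chr1:205321926-205321953, minus strand): cccctagtcccCATTCCtggtgggcggg
In CCN2 the shown motif starts 169 bases before the annotated start, and it is 1 of 3 matches in the window of 250 bases before to 50 after the start. ANKRD1 and NUAK2 had 2 matches each. The windows of AMOTL2, AJUBA and TNC held none, which says only that these letters are not in that window. A match stood in 10.7% of the 10395 tested genes with a promoter window, in 12.6% of those higher in siKDM1A and in 9.61% of those higher in siHDAC2.

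Other motifs, chosen after the lists had been seen, were counted in the same windows on both strands, as descriptions only. The AP-1 motif TGANTCA stood in 6.62% of promoters of genes higher in siKDM1A, 3.62% of those higher in siHDAC2 and 4.25% of all. The window of IL32, named here only for this search, held none. EMP1 had 2 matches, and 1 is shown because both siKDM1A libraries held more EMP1 than the 10 other libraries of the series. The siCARM1 libraries, at 9.90 and 8.87 CPM, were also above siCTL (3.28 and 3.59 CPM).
EMP1 (chr12:13196541-13196567, plus strand): tctgtgtgtcTGAGTCAgagagagcct
The E-box CACGTG stood in 11.2%, 6.61% and 10.2%, the ETS motif CCGGAAG in 9.12%, 15% and 19%, the CRE motif TGACGTCA in 2.88%, 2.05% and 3.35%, and the CArG box bound by SRF in 1.5%, 1.89% and 1.08%, in the same order. The differences between these shares were not tested.

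In the list of TGF-beta and BMP ligands, their antagonists and their early targets, the called members were also mostly higher in siKDM1A. Of 24 tested members, 11 were higher in siKDM1A and 1 in siHDAC2, with a median log2 fold change of -0.24. Among the ligands, TGFB1 had 110.3 and 113 CPM in siKDM1A, 57.5 and 58.8 CPM in siHDAC2, and 69.8 and 64.3 CPM in siCTL (log2 fold change -0.94, SE 0.058, adjusted p = 1.01e-13). BMP2 had 37.7 and 31.6 CPM in siKDM1A, 18.4 and 19.3 CPM in siHDAC2, and 25.3 and 24.9 CPM in siCTL (log2 fold change -0.87, adjusted p = 4.04e-10). BMP2 was thus above siCTL in siKDM1A and below it in siHDAC2, while TGFB1 was raised in siKDM1A and not called in siHDAC2. NOG, which encodes the BMP antagonist noggin, had 3.38 and 4.49 CPM compared to 1.65 and 1.94 CPM (log2 fold change -1.12, adjusted p = 0.000486). Ligands and antagonist thus differed in the same direction.

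In the Notch list 5 of 24 were higher in siKDM1A (3 without siKDM1A replicate 1) and 1 in siHDAC2. The receptor gene NOTCH3 had 104 and 105 CPM in siKDM1A, 70.0 and 74.1 CPM in siHDAC2, and 63.2 and 73.1 CPM in siCTL (log2 fold change -0.54, adjusted p = 3.43e-08), and the feedback inhibitor NRARP differed by -0.41 (adjusted p = 2.63e-08). In the WNT list 6 of 35 were higher in siKDM1A and 4 in siHDAC2. The share called was 25% in the Notch list and 28.6% in the WNT list, compared to 14.3% of all tested genes. The ligand WNT7B had 8.27 and 7.34 CPM in siKDM1A, 3.45 and 3.84 CPM in siHDAC2, and 1.203 and 1.33 CPM in siCTL (log2 fold change -1.08, adjusted p = 3.63e-06). NOTUM, a secreted enzyme that inactivates WNT ligands, had 6.67 and 7.71 CPM in siKDM1A, 1.75 and 2.53 CPM in siHDAC2, and 4.16 and 3.63 CPM in siCTL (log2 fold change -1.71, adjusted p = 6.85e-08). WNT7B was above siCTL in both knockdowns, and NOTUM only in siKDM1A.

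Epithelial genes and mesenchymal genes that were called were in both cases mostly higher in siKDM1A. Of 22 epithelial genes, 7 were higher in siKDM1A and 0 in siHDAC2 (median log2 fold change -0.18), and of 45 mesenchymal and matrix genes 14 were higher in siKDM1A and 3 in siHDAC2 (median -0.11). The shares called were 31.8% and 37.8%, compared to 14.3% of all tested genes. TJP3, a tight junction scaffold, had 7.04 and 8.55 CPM in siKDM1A compared to 2.63 and 3.09 CPM in siHDAC2 (log2 fold change -1.43, adjusted p = 3.81e-06), and OVOL2, a factor that maintains the epithelial state, had 5.76 and 4.53 CPM compared to 2.42 and 2.27 CPM (log2 fold change -1.13, adjusted p = 9.46e-05). On the mesenchymal side, THBS1, the matrix protein thrombospondin 1, had 43.8 and 46.5 CPM in siKDM1A, 21.5 and 20.01 CPM in siHDAC2, and 38.7 and 37.6 CPM in siCTL (log2 fold change -1.13, adjusted p = 1.27e-13). TJP3 and OVOL2 were above siCTL in siKDM1A, and THBS1 was below it in siHDAC2. THBS1 was not typical of its list in siHDAC2. Against siCTL, 5 mesenchymal and matrix genes were lower and 15 higher in siHDAC2, and 2 were lower and 20 higher in siKDM1A. Of the epithelial genes, 2 were lower and 1 higher in siHDAC2, and 2 were lower and 8 higher in siKDM1A. Of 8 tested markers of the breast cancer lines MCF7 and MDA-MB-231, 4 were higher in siKDM1A (2 without siHDAC2 replicate 1) and 1 in siHDAC2, and CD44, an adhesion receptor, had 62.6 and 61.8 CPM in siKDM1A, 47.2 and 49.7 CPM in siHDAC2, and 37.6 and 36.5 CPM in siCTL (log2 fold change -0.36, adjusted p = 2.17e-05). The 13 counted genes of that list summed to 187 to 193 CPM in siKDM1A, 154 to 162 CPM in siHDAC2 and 145 to 153 CPM in siCTL.

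**Figure D5:**
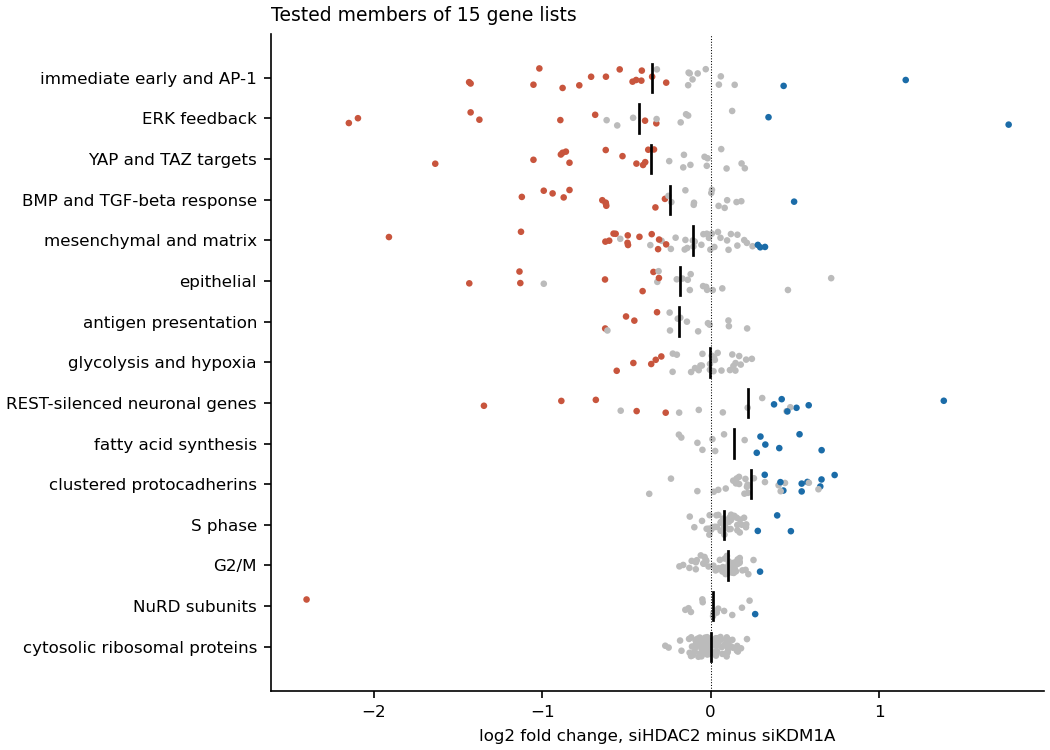
Log2 fold change of siHDAC2 minus siKDM1A (horizontal axis) of the tested members of 15 gene lists (rows), 1 point per gene, with the median as a black bar. Red points were called higher in siKDM1A, blue points higher in siHDAC2 and grey points were not called. The medians of the immediate early, ERK feedback and YAP and TAZ lists lie at -0.35, -0.42 and -0.35, and that of the clustered protocadherins at 0.24.

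REST-silenced neuronal genes were often called, in both directions. Of 19 tested members, 6 were higher in siHDAC2 and 5 in siKDM1A (3 without siHDAC2 replicate 2), a share of 57.9% compared to 14.3% of all tested genes, and 28 further listed genes were counted too rarely to be tested. SYT11, a synaptotagmin, had 32.5 and 32.7 CPM in siKDM1A, 12.4 and 13.2 CPM in siHDAC2, and 14.6 and 13.5 CPM in siCTL (log2 fold change -1.35, SE 0.096, adjusted p = 2.56e-12). L1CAM, a neural adhesion molecule, had 34.5 and 35.3 CPM in siKDM1A, 18.4 and 19.2 CPM in siHDAC2, and 18.5 and 20.7 CPM in siCTL (log2 fold change -0.89, adjusted p = 4.27e-10). SYT11 and L1CAM were raised in siKDM1A while siHDAC2 was not called against siCTL. RAB3A went the other way, with 2.58 and 2.68 CPM in siHDAC2, 1.19 and 0.84 CPM in siKDM1A, and 2.73 and 2.99 CPM in siCTL (log2 fold change 1.38, adjusted p = 0.000163). The median log2 fold change of the list was 0.22, opposite in sign to SYT11 and L1CAM. Against siCTL, 5 members were lower and 4 higher in siHDAC2, and 8 were lower and 3 higher in siKDM1A.

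Of the genes known to rise with deacetylase inhibitors, more were higher in siKDM1A than in siHDAC2. In this list 42.3% were called, compared to 14.3% of all tested genes. Of 26 tested members, 3 were higher in siHDAC2 and 8 in siKDM1A (median log2 fold change -0.15), and without siHDAC2 replicate 2 or siKDM1A replicate 2 only 1 was higher in siHDAC2. TXNIP, an inhibitor of thioredoxin and glucose uptake, had the largest of the differences towards siHDAC2, with 42.9 and 40.6 CPM in siHDAC2, 24.1 and 26.2 CPM in siKDM1A, and 25.8 and 26.0 CPM in siCTL (log2 fold change 0.73, SE 0.075, adjusted p = 6.69e-09). It was raised in siHDAC2 alone. The metallothionein MT2A, on this list and on that of metallothioneins (0 higher in siHDAC2 and 1 in siKDM1A of 6), had 22.2 and 21.9 CPM in siKDM1A compared to 14.4 and 15.5 CPM (log2 fold change -0.55, adjusted p = 0.000249).

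Called genes of fatty acid synthesis were all higher in siHDAC2, whereas those of cholesterol synthesis lay in both directions. Of 14 fatty acid synthesis genes, 6 were higher in siHDAC2 and 0 in siKDM1A, with a median log2 fold change of 0.14. The share called was 42.9%, compared to 14.3% of all tested genes. FADS1, a fatty acid desaturase, had 523 and 514 CPM in siHDAC2, 361 and 358 CPM in siKDM1A, and 561 and 542 CPM in siCTL (log2 fold change 0.53, SE 0.037, adjusted p = 1.89e-12). SCD5, a stearoyl-CoA desaturase, had 43.6 and 45.8 CPM in siHDAC2, 27.6 and 29.1 CPM in siKDM1A, and 34.8 and 33.5 CPM in siCTL (log2 fold change 0.66, adjusted p = 5.6e-09). FADS1 was lowered in siKDM1A, whereas SCD5 was called in opposite directions against siCTL. Of 24 genes of cholesterol synthesis and uptake, 1 was higher in siHDAC2 and 3 in siKDM1A, and the share called (16.7%) was close to the overall one. INSIG1, which holds back the activation of sterol synthesis genes, had 157 and 161 CPM in siKDM1A compared to 122 and 127 CPM in siHDAC2 (log2 fold change -0.35, adjusted p = 7.03e-07).

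In the list of gluconeogenesis and amino acid catabolism 3 of 8 were higher in siHDAC2 and 0 in siKDM1A (37.5% called). Its median log2 fold change was -0.0064, with 4 members below 0 and 4 above. PCK1, the cytosolic enzyme that commits carbon to gluconeogenesis, had 8.66 and 7.12 CPM in siHDAC2, 3.84 and 3.27 CPM in siKDM1A, and 13.3 and 15.4 CPM in siCTL (log2 fold change 1.14, SE 0.17, adjusted p = 3.98e-06). PC, pyruvate carboxylase, had 89.0 and 87.4 CPM in siHDAC2, 58.4 and 62.0 CPM in siKDM1A, and 87.3 and 96.8 CPM in siCTL (log2 fold change 0.55, adjusted p = 1.38e-08). PCK1 was below siCTL in both knockdowns and PC in siKDM1A alone. Of 31 genes of glycolysis and hypoxia, 5 were higher in siKDM1A and 0 in siHDAC2 (median -0.0039). The share called was 16.1%, close to the 14.3% of all tested genes, and 16 members were below 0 and 15 above. SLC2A3, the glucose transporter GLUT3, had 607 and 600 CPM in siKDM1A, 420 and 401 CPM in siHDAC2, and 340.3 and 349 CPM in siCTL (log2 fold change -0.56, SE 0.038, adjusted p = 1.17e-12), and HK2, a hexokinase, differed by -0.35 (adjusted p = 5.6e-05).

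Of 43 S phase genes, 3 were higher in siHDAC2 and 0 in siKDM1A (6.98% called, compared to 14.3% of all tested genes), of 53 G2/M genes 1 and 0 (1.89%), and of the 18 cell cycle genes that the study examined 1 and 1 (11.1%). Their medians were 0.081, 0.10 and 0.10 on the log2 scale, with 36 of 43 S phase and 39 of 53 G2/M members above 0, compared to 6417 of 12830 tested genes. Against siCTL, 1 of the 18 genes that the study examined was lower and 1 higher in siHDAC2. In siKDM1A, 4 of them were lower and 2 higher. RRM1, the large subunit of ribonucleotide reductase, had 420 and 394 CPM in siHDAC2, 295 and 290.1 CPM in siKDM1A, and 356 and 367 CPM in siCTL (log2 fold change 0.48, SE 0.042, adjusted p = 2.89e-10). MCM5, a subunit of the replicative helicase, had 297 and 311 CPM in siHDAC2, 233 and 230.0 CPM in siKDM1A, and 284.5 and 292 CPM in siCTL (log2 fold change 0.39, adjusted p = 9.24e-09). Both were called lower than siCTL in siKDM1A only. Of 17 CDK inhibitors, cyclins and RB family genes, 3 were higher in siHDAC2 and 1 in siKDM1A (23.5% called), the latter being CDKN2B, the inhibitor p15, at 26.4 and 27.2 CPM in siKDM1A compared to 16.7 and 18.0 CPM (log2 fold change -0.62, adjusted p = 1.18e-06). CDKN2C, the inhibitor p18, differed the other way, at 79.1 and 77.4 CPM in siHDAC2 compared to 61.2 and 63.3 CPM (log2 fold change 0.33, adjusted p = 2.95e-05).

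Stress and immune lists held calls in both directions. Of all tested genes, 6.07% were higher in siHDAC2 and 8.28% in siKDM1A, and 14.3% were called in either direction. Of 45 tested p53 targets, 4 were higher in siHDAC2 and 9 in siKDM1A (28.9% called). The stress cytokine gene GDF15 had 10.0 and 10.7 CPM in siKDM1A compared to 4.48 and 6.07 CPM in siHDAC2 (log2 fold change -0.94, adjusted p = 5.54e-05), and CD82, a tetraspanin, had 13.6 and 14.6 CPM in siHDAC2 compared to 8.18 and 7.96 CPM in siKDM1A (log2 fold change 0.81, adjusted p = 2.13e-06). HEK293T cells, named in the sample titles but not in the paper, carry SV40 large T antigen, which binds p53. Of 34 interferon-induced genes, 5 were higher in siHDAC2 and 3 in siKDM1A (23.5% called). IFIT1, which binds foreign RNA, had 9.43 and 8.24 CPM in siHDAC2, 4.61 and 4.15 CPM in siKDM1A, and 8.64 and 9.61 CPM in siCTL (log2 fold change 1.004, adjusted p = 1.14e-05), and IFITM2, a membrane protein that blocks virus entry, had 10.8 and 10.3 CPM in siHDAC2, 16.1 and 16.9 CPM in siKDM1A, and 21.1 and 21.7 CPM in siCTL (log2 fold change -0.65, adjusted p = 3.49e-05). Against siCTL, IFIT1 was low in siKDM1A alone, and IFITM2 was low in both knockdowns.

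Of 16 antigen presentation genes, 4 were higher in siKDM1A and 0 in siHDAC2 (25% called, compared to 14.3% of all tested genes). The lists that follow had 22.9% (integrated stress response), 22.7% (unfolded protein response), 25% (BCL2 family) and 21.2% (lysosome) of their members called. TAPBP, which loads peptides onto class I molecules, had 130 and 124 CPM in siKDM1A, 88.9 and 90.3 CPM in siHDAC2, and 116 and 114.5 CPM in siCTL (log2 fold change -0.50, adjusted p = 9.35e-09), and ERAP1, the peptidase that trims such peptides, differed by -0.45 (adjusted p = 2.39e-06). HLA-B differed by -0.63, but 30.7% of its exons overlap another gene and class I genes are close in sequence, so that its reads may be split. Of 35 genes of ATF4 and the integrated stress response, 3 were higher in siHDAC2 and 5 in siKDM1A, and the pseudokinase gene TRIB3 had 56.3 and 50.6 CPM in siKDM1A compared to 33.3 and 36.9 CPM in siHDAC2 (log2 fold change -0.60, adjusted p = 1.6e-07). Of 22 genes of the unfolded protein response, 3 were higher in siHDAC2 and 2 in siKDM1A. EDEM1, which directs misfolded glycoproteins to degradation, had 105 and 107.5 CPM in siKDM1A, 73.2 and 70.6 CPM in siHDAC2, and 115 and 120.1 CPM in siCTL (log2 fold change -0.57, adjusted p = 1.02e-09). Of 16 BCL2 family genes, 1 was higher in siHDAC2 (BMF, a BH3-only protein that promotes apoptosis, 0.45, adjusted p = 5.38e-07) and 3 were higher in siKDM1A (1 without siHDAC2 replicate 1). Of 33 lysosome genes, 4 (PSAP among them) were higher in siHDAC2 and 3 in siKDM1A, and TFEB, the master factor of lysosome genes, had 8.04 and 8.68 CPM in siKDM1A compared to 4.85 and 4.77 CPM in siHDAC2 (log2 fold change -0.80, adjusted p = 7.29e-05).

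The clustered protocadherins are neuronal adhesion molecules made from arrays of alternative first exons, and 9 of 32 tested members (28.1% called, compared to 14.3% of all tested genes) were higher in siHDAC2 and 0 in siKDM1A (median 0.24). This count rested on single libraries, as it was 2 without siHDAC2 replicate 1 or siKDM1A replicate 1, and 2 with DESeq2. PCDHB11, which shares no exon sequence with another annotated gene, had 22.0 and 20.7 CPM in siHDAC2, 13.2 and 13.9 CPM in siKDM1A, and 19.1 and 16.2 CPM in siCTL (log2 fold change 0.65, SE 0.097, adjusted p = 5.88e-06). Members of the gamma cluster share exons, so that their counts are uncertain. Of 32 HOX genes, 1 was higher in siHDAC2 (HOXA5, 0.50, adjusted p = 0.00097) and 4 in siKDM1A (HOXC13 among them, -0.51, adjusted p = 5.47e-05), the latter count being 2 without either of the siHDAC2 libraries in turn or siKDM1A replicate 2. Of 30 nuclear receptors, 5 were higher in each (33.3% called), although only 1 was higher in siKDM1A without siHDAC2 replicate 1. NR2F1, a member of the COUP family, had 37.7 and 37.5 CPM in siHDAC2 compared to 25.04 and 24.3 CPM (log2 fold change 0.61, adjusted p = 2.21e-07). Of 12 kidney lineage genes, 1 was higher in each, of 11 germline genes 0 in siHDAC2 and 1 in siKDM1A, of 15 imprinted genes 0 and 1 (PHLDA2, -1.14, adjusted p = 3.14e-05), and of 7 tested markers of other cell types 1 and 0. The shares called were 16.7%, 9.09%, 6.67% and 14.3% in that order, and 15.6% in the HOX list.

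In the lists of ribosomal and respiratory chain genes, the share called was below the 14.3% of all tested genes. Of 82 cytosolic ribosomal protein genes, 0 were called by edgeR (median -0.0007, range -0.27 to 0.22) and 0 by DESeq2. In the edgeR test 25 of these 82 had an unadjusted p under 0.05, as did 4770 of all 12830 tested genes, a larger share. Of 75 mitochondrial ribosomal protein genes, 0 were higher in siHDAC2 and 3 in siKDM1A. Of 82 nuclear genes of the respiratory chain, 0 were higher in siHDAC2 and 2 in siKDM1A. The larger of these differences was in ATP5MC3, a gene of the ATP synthase ring, with 84.5 and 82.7 CPM in siHDAC2, 148 and 144 CPM in siKDM1A, and 150.5 and 154 CPM in siCTL (log2 fold change -0.80, SE 0.047, adjusted p = 3.01e-14). Its level in siHDAC2 stood below all 10 other libraries of the series. Of the 13 mitochondrial genes, 1 was higher in siHDAC2 on a mean of 15 and 4 counts. Of 62 histone genes, 2 were higher in siHDAC2 and 5 in siKDM1A (2 without siHDAC2 replicate 1), and the variant gene H2AZ2 had 281 and 278 CPM in siHDAC2 compared to 211 and 214 CPM (log2 fold change 0.40, adjusted p = 6.62e-09). Of 218 zinc finger genes of chromosome 19, 13 were higher in siHDAC2 and 3 in siKDM1A (1 without either siKDM1A library), and ZNF730 had 12.5 and 11.4 CPM in siHDAC2, 7.08 and 6.88 CPM in siKDM1A, and 6.18 and 6.30 CPM in siCTL (log2 fold change 0.77, adjusted p = 3.33e-05). The shares called were 11.3% for histone genes and 7.34% for these zinc finger genes. The latter are close in sequence, and their counts may be split among copies.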

How the data were processed

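RNA-seq was measured in 12 libraries labelled HEK293T, 2 per siRNA group. The authors deposited raw read pair counts per Ensembl gene in the layout of STAR's gene counts, with no normalization seen. The submitters' processing notes name STAR 2.7.10, CASAVA 1.4 and hg19, whereas the paper's methods name TopHat, HOMER and DESeq2. Reverse strand counts were used, since the kit is directional. Read pairs with several locations are left out of such counts (5.44% to 10.6% of fragments in the 12 libraries). Identifiers were matched to GENCODE 44 on GRCh37 (96.7% matched), and unmatched genes, with 1.76% to 2.61% of counts, were left out.

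The coding genes whose mean FPKM exceeded 0.5 in 1 or more of the 6 groups were tested with edgeR 4.0.16 (R 4.3.3), by the quasi-likelihood test with TMM factors in a model of 6 group means over 12 libraries (6 residual degrees of freedom, biological coefficient of variation 3.47%). The spread thus came from 6 pairs, and only the 4 libraries enter the contrast. CPM, FPKM and standard errors were computed from the counts. An exact permutation test of 2 against 2 cannot give a two-sided p below 0.333. Calls required a p, adjusted by Benjamini-Hochberg over all tested genes, of at most 0.05 and a fold of 1.2 or more. The scripts were tested on simulated data. The replicates of siHDAC2 and siKDM1A differed beyond sampling noise (chi-square per degree of freedom 3.18 and 3.07). Each library was counted as a sample, although such a spread may be technical and does not show separate cultures.

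Genes were named if targeted, if among the 12 with the largest called difference per direction (mean of at least 50 counts in the higher group, CPM not overlapping) or the 5 with the smallest adjusted p, if on the NuRD or CoREST lists, or if among the 4 called members of another list with the largest difference. Not all of these are printed, and other names are marked. The members and 47 lists were chosen with earlier results of these data known. The lists are described by counts and medians without a set test. Alternatives were DESeq2 1.42.0 and its size factors, a replicate block, only the 4 libraries, counts without regard to strand, other filters and fold minimums, corrections for GC content and length (loess, span 0.3), thinning to the smallest total, and each library left out. Promoters were RefSeq windows of 300 bases (81.0% of tested genes matched by symbol). Figures were drawn with matplotlib.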

Additional observations from a re-analysis of the deposited data

Results flagged for a closer look

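Results are given here where siHDAC2 and siKDM1A were called in opposite directions against siCTL and the direct contrast, which tests the difference itself, was also called. Among all tested genes, 45 were lower in siHDAC2 and higher in siKDM1A, and 9 were the reverse, with siCTL shared by both comparisons. The direct log2 fold changes (siHDAC2 minus siKDM1A) of the named genes and list members among them follow.

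They were -1.64 for ANKRD1, -1.91 for TNC, -1.43 for KRT17, -1.26 for TNFRSF12A, -0.88 for CCN1 and -0.60 for ITGA3, an integrin chain. For inhibitors and ligands they were -2.09 (SPRY4), -1.71 (NOTUM) and -0.87 (BMP2), and, outside the naming rule, -1.37 for DUSP5, -0.62 for SKIL and -0.86 for NUAK2. Further values were -2.42 for OLR1, -2.14 for CEND1, -1.14 for PHLDA2 and -0.63 for HLA-B. In the other direction they were 1.72 for ENPP2, 1.16 for SARDH, 0.66 for SCD5 and 0.65 for PCDHB11. TNC differed from siCTL by 1.24 in siKDM1A and by -0.67 in siHDAC2, and ENPP2 was 0.92 above siCTL in siHDAC2 and differed by -0.80 in siKDM1A.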

How the results depend on the processing

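None of the 189 named genes had its call in the other direction under the alternatives run. The counts of genes higher in siHDAC2 and in siKDM1A were 1641 and 1787 without a fold minimum and 143 and 355 with a minimum of 1.5, where 71.3% of calls were on the siKDM1A side compared to 57.7% at 1.2. Without a fold minimum, the counts lower and higher than siCTL were 2256 and 2283 for siHDAC2 and 2618 and 2814 for siKDM1A, and with 1.5 they were 256 and 380, and 380 and 659. siCTL lay between the knockdowns for 713 and 880 genes without a minimum (64 and 191 with 1.5), above both for 613 genes higher in siHDAC2 (61) and below both for 624 genes higher in siKDM1A (139). All of these follow from the minimum. With 1 library left out the direct counts were 685 to 726 and 926 to 976 (with a siCTL library left out, added after seeing the data, 773 to 775 and 1056 to 1060); of the main calls, 572 to 607 and 817 to 835 remained without a siHDAC2 or siKDM1A library. In the same way the siCTL comparisons gave 1017 to 1230 lower and 1178 to 1367 higher for siHDAC2, and 1333 to 1510 and 1637 to 1809 for siKDM1A; siCTL lay between for 317 to 363 and 524 to 573 genes, above both for 229 to 317 and below both for 281 to 370. DESeq2 called 649 and 915. Corrections for GC content (932 and 1005) and for length (855 and 948) brought the siKDM1A share to 51.9% and 52.6%. The remaining alternatives, other filters, strand, size factors, thinning and only the 4 libraries, gave between 720 and 935, and 987 and 1228, the last with every biotype tested.

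Of the named genes, 47 lost the call under an alternative other than the fold minimum, and 44 of these when 1 library was left out. The named genes include 13 NuRD subunits and 14 members of the KDM1A and CoREST list that were not called. Those had no call to lose. The count of YAP and TAZ targets higher in siKDM1A was 12 to 14 over 17 alternatives, that of immediate early genes 13 to 15, of ERK feedback genes 7 to 9, of BMP and TGF-beta genes 10 to 12, and that of fatty acid genes higher in siHDAC2 5 to 7. Counts of other lists were less stable. Over the same alternatives, those higher in siHDAC2 were 2 to 11 for the clustered protocadherins (9 as reported), 1 to 3 for the SIN3, NCOR and MiDAC list (3), 0 to 2 for other deacetylases (2) and 1 to 4 for genes induced by deacetylase inhibitors (3), and those higher in siKDM1A were 1 to 5 for nuclear receptors (5) and 1 to 4 for the BCL2 family (3). With 1 compared library left out, the counts higher in siKDM1A were as low as 3 for REST-silenced genes (without siHDAC2 replicate 2) and Notch (siKDM1A replicate 1), 2 for histones and for the breast cancer line markers (siHDAC2 replicate 1), and 1 for zinc finger genes (either siKDM1A library), and as high as 5 for cholesterol genes and 7 for mitochondrial ribosomal proteins, while lysosome genes higher in siHDAC2 reached 7. The counts of 2 for lysine 4 enzymes and histones higher in siHDAC2, and for other JmjC demethylases and the unfolded protein response higher in siKDM1A, fell to 1. The deviations of same-numbered siHDAC2 and siKDM1A libraries from their group means correlated at r = -0.12, so the numbers were not shown to pair the samples; a replicate block gave 787 and 1068 calls, and crossed numbers, added after seeing the data, 797 and 1093. Depth limits genes such as PAEP and OLR1 (means of 10.5 and 11.5 counts in siHDAC2), and the precision rests on 2 libraries per group.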

Other observations

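Genes of other biotypes were tested in a fit of 20156 genes of every biotype. Of 3774 long noncoding RNAs, 93 were higher in siHDAC2 and 102 in siKDM1A (5.17%), compared to 13.1% of 14495 coding genes in that fit. The long noncoding RNAs below were chosen after their values were seen, among those that share less than 5% of their exons with another gene. SLIT2-IT1, transcribed from within SLIT2, had 4.38 and 3.69 CPM in siHDAC2, 1.44 and 1.40 CPM in siKDM1A, and 1.91 and 1.25 CPM in siCTL (log2 fold change 1.49, SE 0.24, adjusted p = 7.08e-06). Its host SLIT2 was also higher in siHDAC2. NKILA, a long noncoding RNA known to bind the NF-kappaB complex, had 5.24 and 5.72 CPM in siKDM1A, 2.26 and 2.45 CPM in siHDAC2, and 2.28 and 2.59 CPM in siCTL (log2 fold change -1.21, adjusted p = 3.59e-06). MIR23AHG, the host of a cluster with miR-23a, had 35.6 and 30.5 CPM in siKDM1A, 18.7 and 20.3 CPM in siHDAC2, and 22.1 and 21.1 CPM in siCTL (log2 fold change -0.76, SE 0.086, adjusted p = 5.97e-09). NKILA and MIR23AHG were thus higher in siKDM1A than in every siHDAC2 and siCTL library.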
